A study of Mus musculus with 4 samples.

Results

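Mature luminal (ML) cells of the adult mouse mammary gland were compared between diestrus and estrus. A cell was taken as ML when at least 3 of the 6 genes Stc2, Upk3a, Plac8, Tspan1, Prlr and Cited1 had a count, at most 1 of the 5 luminal progenitor (LP) genes Cd14, Lalba, Plb1, Atp6v1b1 and Aldh1a3 had one, and at most 2 of the 7 basal genes Krt5, Krt17, Acta2, Myl9, Tagln, Mylk and Cnn1 had one. This gave 630 ML cells of 2439 in diestrus and 748 of 2729 in estrus, or 1378 of 5168 in all. Basal cells, with at least 4 of the same 7 basal genes, numbered 1068 and 1324. LP cells numbered 283 and 323, with at least 3 of the 5 LP genes, at most 1 of the 6 ML genes and at most 2 of the 7 basal genes. Cells with more ML genes were therefore left out of the LP cells in all comparisons below. The cells were thus selected on the measured counts of these 18 genes, whose levels are not results here.

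Single epithelial cells of FVB/NJ mice were captured on a droplet platform, the 10x Genomics Chromium, which counts molecules at the 3′ end of transcripts. Both adult libraries came from glands taken at 10 weeks, staged by vaginal cytology, with the glands of a pair of mice pooled for each phase and sorted as CD24+ cells free of blood and endothelial lineage markers. Neither group carried a transgene or received a treatment. Each phase had 1 library, so no test across mice was possible, no p-value is given, and the phase, the mice and the preparation cannot be told apart. Levels are counts summed over ML cells, given as CPM (counts per 1e6 scaled counts) after scaling by the trimmed mean of M-values, and all intervals are exact 95% intervals that cover counting error only. A library from puberty, at 5 weeks, is given beside some values with 2031 ML cells.

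ML cells are the hormone-sensing cells of the mammary ducts. Many carry the estrogen and progesterone receptors, and they pass the hormonal signal on to neighbouring basal and LP cells through secreted or membrane-bound factors, of which amphiregulin (Areg) and RANKL (Tnfsf11) are the best known. In rodents, diestrus is the phase of high progesterone, and estrus follows the peak of estrogen.

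The labelled cell type was checked on genes that the rule did not use. Ptn had a count in 100% of the ML cells of diestrus and in 79.9% of basal cells, so it does not tell them apart. The 7 ML genes outside the rule summed to 13251 CPM in diestrus and 17513 in estrus, here without TMM scaling, against 1052 and 1158 in basal cells and 213 and 186 in LP cells. Basal genes outside the rule, among them Krt14 and Trp63, summed to 41.6 and 37.6 in ML cells on the same scale, against 7251 in basal cells of diestrus. LP genes outside the rule, among them Trf and Kit, summed to 205 and 331, against 19057 in LP cells of diestrus. The immune list summed to 1.53 and 1.67. The median ML cell held 4458 counts in diestrus and 4207 in estrus. The median basal cell held 3464 and 2585, and the 2 adult libraries shared 13 barcodes. At the edge of the rule, 124 ML cells of diestrus had exactly 3 of the 6 ML genes and 45 cells had 2 of 6 with the other limits met, against 146 and 29 in estrus.

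In ML cells, 5291 genes reached 20 CPM in either phase. Of these, 270 were at least 2-fold higher in diestrus (5.1%) and 113 were at least 2-fold lower (2.14%), together 7.24%. Scaling by total counts moved the log2 ratios of shared genes by a median of -0.18 and turned this split into 195 higher and 194 lower. Among the 4438 genes also measured in basal cells, 37 (0.834%) were higher in ML cells and not in basal cells, where the fold was under 1.5 or the other way. The same held for 13 lower genes (0.293%). With total counts as the scale these numbers turned to 20 higher and 30 lower. Genes that were higher or lower in ML cells and not in basal cells are called not shifted in basal cells below. They include genes that moved the other way there. A further 44 higher and 62 lower genes were under 20 CPM in basal cells of both phases, so that no basal fold could be read. The remaining 189 higher and 38 lower genes were also shifted in the same direction by at least 1.5-fold in basal cells, where 7.26% of genes were 2-fold higher and 3.39% were lower.

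**Figure D1:**
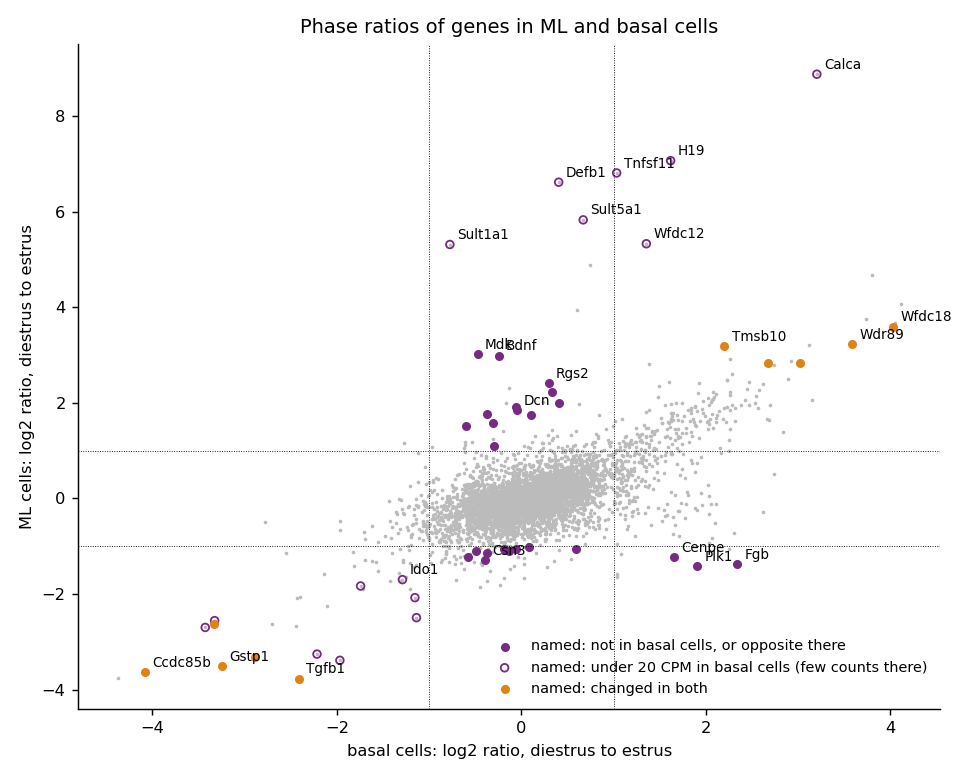
Log2 ratio of diestrus to estrus in basal cells (x axis) and in ML cells (y axis), 1 point per gene with a value in both, dotted lines at a fold of 2, and genes at 0 in a library placed at 3 counts. Calca, H19, Tnfsf11 and Defb1 lie above 6 on the ML axis, genes such as Wdr89 and Tmsb10 were higher in both cell types, and Fgb, Plk1 and Cenpe lie at the lower right, lower in ML cells and higher in basal cells.

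Calca and Tnfsf11 had counts in the ML cells of diestrus and none in those of estrus. Calca encodes calcitonin and the neuropeptide CGRP. It had 1135 counts in 139 of 630 diestrus ML cells, or 22.1% of cells (18.9 to 25.5), at 369 CPM (348 to 391). In estrus it had 0 counts in 748 ML cells, which allows a share of cells with a count of up to 0.401% (3 of 748 cells) and sets no limit on the cells that express it, and 0 counts in all 2729 cells of the library. The diestrus level was at least 470-fold higher when the estrus group was set at 3 counts. The pubertal ML cells also had 0 counts of Calca. Within the diestrus library, 89.3% of all Calca counts fell in ML cells, and 1.12% of basal cells and 0.353% of LP cells had a count at median depths of 3464 and 4414. The basal cells held 27 Calca counts in diestrus and 0 in estrus. The cells that carried it held a median of 4 Calca counts and up to 53.

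Tnfsf11 encodes RANKL, the membrane-bound ligand through which ML cells signal to RANK on basal and LP cells. It had 271 counts in 118 diestrus ML cells, or 18.7% (15.8 to 22.0), at 88.1 CPM (77.9 to 99.3), and 0 counts in estrus ML cells, a level at least 112-fold higher in diestrus. In the whole estrus library it had 2 counts, in 1 cell that had enough ML genes but failed the LP or basal limit. Pubertal ML cells had 4.30 CPM, with a count in 1.23% of cells. Basal and LP cells of diestrus carried it in 0.281% and 0.707% of cells. Its receptor Tnfrsf11a had 1 count in ML cells of each phase, against 15.9 and 13.9 CPM in basal cells of diestrus and estrus. The decoy receptor Tnfrsf11b had 1 count in diestrus ML cells and none in estrus, against 29.2 and 37.5 CPM in basal cells.

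Areg encodes amphiregulin, an EGF receptor ligand induced by estrogen in ML cells. Its level was 2024 CPM in diestrus and 659 CPM in estrus, a log2 ratio of 1.62 (fold 2.93 to 3.22). A count was present in 71.3% of ML cells in diestrus and 43.9% in estrus, and in 67.3% and 34.7% after every cell was thinned to 2000 counts. In pubertal ML cells it stood at 3504 CPM. Areg was also 2-fold higher in basal cells of diestrus (44.3 against 22.0 CPM), where 5.43% of cells had a count, so it does not count as a gene that differed in ML cells alone. Areg was named from these libraries in the study, and its direction is not independent evidence. The receptor gene Egfr had 3 counts in diestrus ML cells and 2 in estrus.

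The bases upstream of Calca, Tnfsf11 and Areg are shown as the promoters of the hormone-linked ligand genes of ML cells. Each is the 250 bases before the annotated start in RefSeq (GRCm38.p6), with TGACG or its reverse complement CGTCA, the half-site bound by CREB, and AGAACA or TGTTCT, the half-site bound by progesterone and glucocorticoid receptors, in capitals. The windows lie at chr7:114636358-114636607 on the minus strand (Calca), chr14:78308044-78308293 on the minus strand (Tnfsf11) and chr5:91139349-91139598 on the plus strand (Areg).
Calca: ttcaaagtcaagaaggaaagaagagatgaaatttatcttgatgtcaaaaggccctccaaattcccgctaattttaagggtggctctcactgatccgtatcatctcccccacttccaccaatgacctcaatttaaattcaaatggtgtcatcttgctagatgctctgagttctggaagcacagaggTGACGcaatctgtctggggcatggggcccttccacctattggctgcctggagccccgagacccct
Tnfsf11: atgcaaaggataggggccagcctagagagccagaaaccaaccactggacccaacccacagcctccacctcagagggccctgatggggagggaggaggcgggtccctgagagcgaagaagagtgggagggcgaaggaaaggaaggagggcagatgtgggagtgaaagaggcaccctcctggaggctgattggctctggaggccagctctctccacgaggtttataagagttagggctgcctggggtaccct
Areg: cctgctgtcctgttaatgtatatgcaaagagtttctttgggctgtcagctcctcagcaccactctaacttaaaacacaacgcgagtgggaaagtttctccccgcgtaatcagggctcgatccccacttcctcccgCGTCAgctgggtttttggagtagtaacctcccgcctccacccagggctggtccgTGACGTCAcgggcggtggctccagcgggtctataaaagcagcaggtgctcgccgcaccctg
Calca held 1 match to TGACG on either strand, and Areg held 3, of which 2 overlap in the palindrome TGACGTCA. The Tnfsf11 window held none. AGAACA was found in none of the 3 windows. Of all 32851 windows of this length, 17.8% held TGACG and 16.1% held AGAACA on either strand, and by gene the shares were 19.8% and 18.2% of 27025. Of the 20 genes named by rule as higher in ML cells and low or not shifted in basal cells, 14 matched the table by symbol, and 5 of them held TGACG and 3 held AGAACA. A match is a run of letters and not a bound site.

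**Figure D2:**
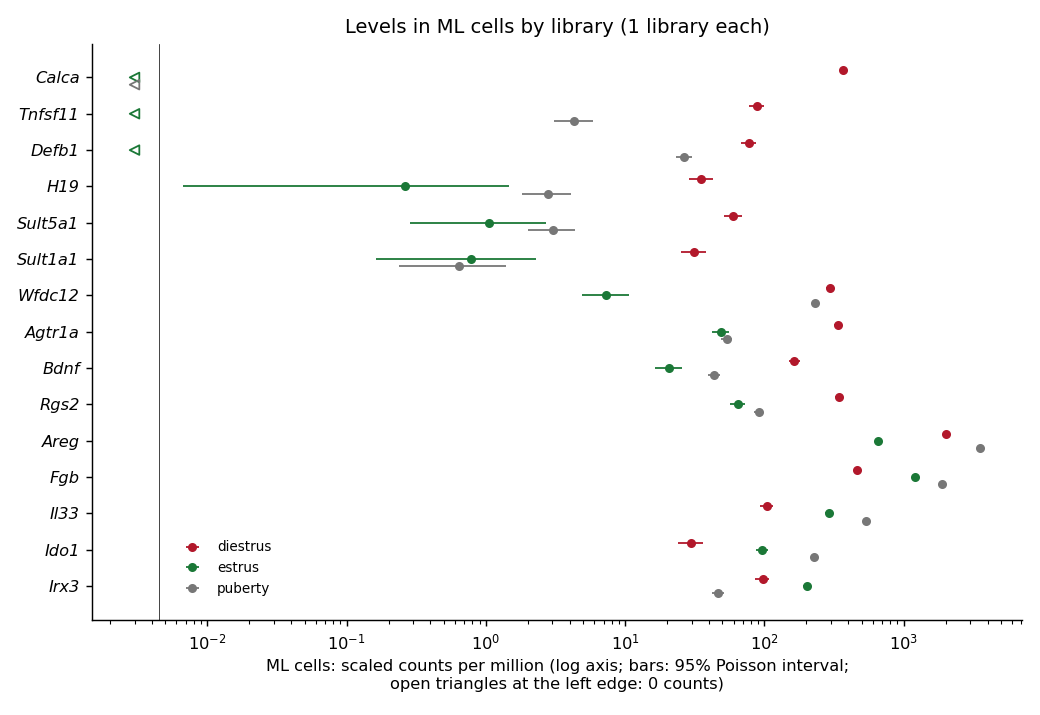
Level in ML cells on a log axis in CPM, with 95% Poisson intervals, for diestrus, estrus and puberty, 1 library each, and open triangles for 0 counts. Calca stood at 369 in diestrus with 0 counts in both other libraries, whereas Areg, Fgb, Il33 and Ido1 were highest in puberty.

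Further genes of the progesterone list were higher in diestrus. Of its 12 members at 20 CPM or over in either phase, 6 were higher past a fold of 2, against 5.1% of all genes. None was lower. The median log2 ratio of the 12 was 1.04 against -0.02 over all genes compared, and 0.30 for the 7 members measured in basal cells. Calca, Tnfsf11, Zbtb16 and Fkbp5 reached 20 CPM in diestrus only, the phase where they were high. The list was chosen with earlier results of these data known, so the count is a description and not support. Zbtb16, a transcription factor known as a progesterone and glucocorticoid target, stood at 35.1 CPM in diestrus and 7.07 in estrus, with a count in 14.1% and 3.48% of ML cells. Fkbp5, a chaperone partner of steroid receptors, stood at 21.5 and 4.19 CPM, with a count in 8.57% and 2.01%. In basal cells both were under 5 CPM in either phase. Stat5a, the transcription factor downstream of the prolactin receptor, stood at 65.4 and 29.9 CPM and was 1.7-fold higher in basal cells.

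Wnt4 and Rspo1, secreted factors of the Wnt pathway, were not past the fold or had few counts. Wnt4 had a log2 ratio of 0.69 (fold 1.31 to 1.99) between 70.6 and 43.8 CPM. Rspo1, which the study also named from these libraries, had 9 counts in ML cells of diestrus and 0 in estrus, which is at least 3.72-fold higher, and 33.3% of those counts came from 1 cell. Wnt5a and Wnt7b had log2 ratios of -0.72 and -0.42.

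Hormone receptor genes were compared as well. None of the 5 hormone receptor genes that reached 20 CPM was past the fold, and their median was -0.30. Pgr, the progesterone receptor, had 110 counts in diestrus and 87 in estrus, a log2 ratio of 0.65 (fold 1.17 to 2.10), with a count in 15.2% and 10.2% of ML cells. Esr1, the estrogen receptor, had 75 and 96 counts and a log2 ratio of -0.04 (fold 0.707 to 1.33). Of the estrogen targets, Areg alone of 7 was past the fold, and the list had a median of 0.28. Calcr and Calcrl, receptors of the calcitonin family, had 0 counts in ML cells of both phases, and their partner Ramp1 stood at 26.3 and 35.4 CPM.

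Other genes that were rare in basal cells included small secreted defence proteins and sulfotransferases. Defb1, an antimicrobial beta-defensin, had 237 counts in 99 diestrus ML cells and 0 in estrus, which is at least 98.1-fold higher, and 77.1 CPM in diestrus against 26.4 in puberty. In basal cells it was present at 9.32 and 7.05 CPM in the same 2 adult libraries. Wfdc12, a secreted whey acidic protein family member, had 906 and 28 counts, a log2 ratio of 5.33 (fold 27.6 to 60.8). It was unevenly spread: 12.1% of diestrus ML cells had a count and 16.4% of all its diestrus counts came from 1 cell. The sulfotransferases Sult5a1 and Sult1a1 had 183 against 4 counts and 96 against 3 counts, with ratios of 21.8 to 211 and 13.2 to 196. H19, an imprinted long noncoding RNA, had 108 counts in 41 cells of diestrus and 1 count in estrus, with a ratio between 23.6 and 5343. Ccl5 had 102 and 2 counts, but 99.0% of its diestrus counts were in 1 cell, and its log2 ratio was 0.34 without the cell with most counts.

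The genes Agtr1a, Hba-a1 and Hba-a2 are named here after their values were seen. Agtr1a, an angiotensin II receptor, stood at 339 and 48.5 CPM (fold 5.97 to 8.22), with a count in 51.0% of ML cells in diestrus and 19.8% in estrus. It was found in 1.22% of basal cells and 1.41% of LP cells in diestrus, with basal levels of 4.88 and 1.87 CPM in diestrus and estrus. Hba-a1, which encodes the alpha chain of haemoglobin, had 1737 and 85 counts (fold 20.4 to 31.9), in 45.7% and 8.42% of ML cells and in 1.12% of basal and 1.06% of LP cells of diestrus, with basal levels of 8.69 and 0.622 CPM. Hba-a2 had 102 and 3 counts, and 85.8% of the 3′ end of Hba-a1 is shared with it. The beta globin genes Hbb-bs and Hbb-bt, which mark red cells, had 0 counts in ML cells of both phases. The sort removed cells with the red cell antigen Ter119. The source of the Hba-a1 counts was not tested.

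Of the 37 higher genes not shifted in basal cells, 12 were named by rule. Bdnf, a neurotrophin, stood at 164 CPM in diestrus and 20.7 in estrus, a log2 ratio of 2.99 (fold 6.24 to 10.2), with a count in 32.1% and 7.09% of ML cells. Its basal level was 263 and 311 CPM, above the ML level in both phases. Rgs2, which dampens G protein signalling, stood at 343 and 64.4 CPM (fold 4.62 to 6.14), in 40.6% and 14.2% of cells, and its basal log2 ratio was 0.29. Mdk, a heparin-binding growth factor, had 65 and 10 counts in ML cells (fold 4.12 to 17.6) and stood higher in basal cells, at 235 and 326 CPM.

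Dcn, the matrix proteoglycan decorin, stood at 830 and 232 CPM in ML cells (fold 3.32 to 3.87), in 37.3% and 22.3% of cells, while basal cells held 260 and 269 CPM. Dcn also marks fibroblasts. The other 4 fibroblast markers, Col1a1, Col1a2, Col3a1 and Lum, had 75 counts together in ML cells of diestrus and 1 in estrus. Each of them was found in a single ML cell of diestrus, and 235 cells there had a Dcn count. The source of the Dcn counts was not tested.

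The transcription factor Sox4 stood at 349 and 163 CPM, a log2 ratio of 1.10 that became 0.92 with total counts as the scale, and with a count in 56.0% and 27.9% of ML cells, and Tuba1a, a tubulin whose 3′ end is 43.9% shared with other genes, at 219 and 73.6 CPM. Smox (spermine oxidase), Nme4 (a mitochondrial nucleoside diphosphate kinase), Porcn (the acyltransferase that lipidates Wnt proteins), Flna (filamin A), Arl4d (a small GTPase) and Shisa4 had 63 to 87 counts in diestrus and 22 to 36 in estrus, with log2 ratios from 1.52 to 2.23. Shisa4 went the other way in basal cells, at 22.9 CPM in diestrus and 34.8 in estrus. In LP cells Sox4 was also higher, at 396 and 201 CPM, as were Nme4 (34.1 and 8.95 CPM) and Tuba1a (96.9 and 59.7). Arl4d was lower there (59.6 and 122).

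**Figure D3:**
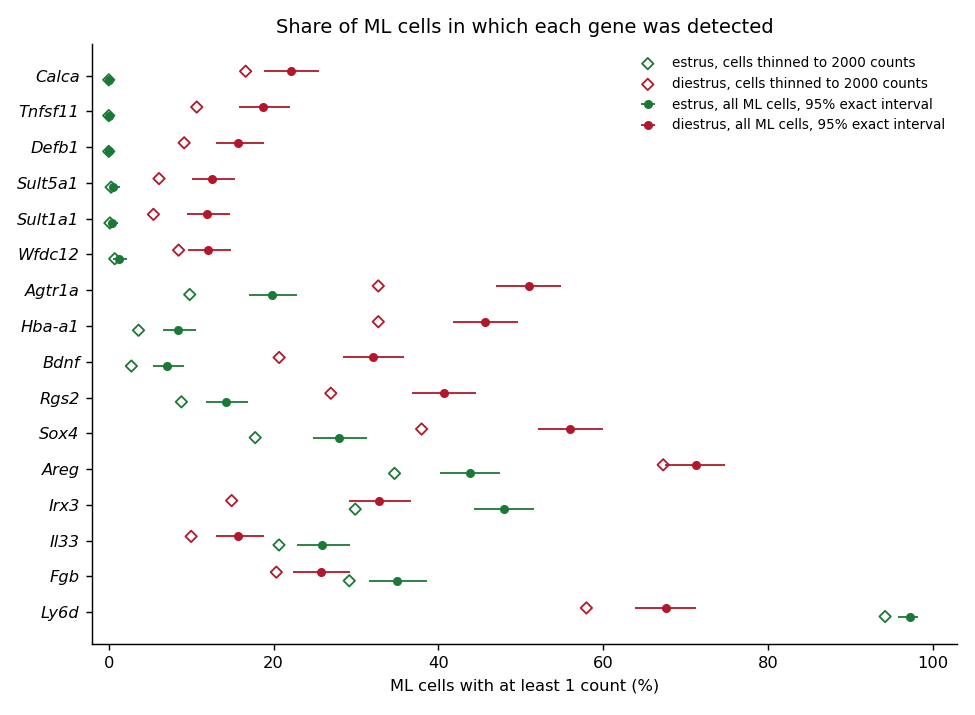
Share of ML cells with at least 1 count of each gene in diestrus and estrus, as filled points with 95% exact intervals for all ML cells and open diamonds after thinning every cell to 2000 counts. Calca, Tnfsf11 and Defb1 were at 0 in estrus, and Ly6d was found in 97.2% of estrus and 67.6% of diestrus ML cells.

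The ML cells of diestrus were not uniform. Ly6d, a surface antigen of ML cells, had a count in 426 of 630 ML cells in diestrus (67.6%) and in 727 of 748 in estrus (97.2%). Ly6d was chosen for this split after its values were seen, so what follows is a description over cells of 1 library, which share their source. After thinning to 2000 counts, which left out 40 diestrus and 56 estrus cells, 248 of 590 diestrus ML cells (42.0%) had no Ly6d count, against 40 of 692 in estrus (5.78%). The cells without Ly6d had been deeper before thinning, with a median of 6009 counts against 4044. On the counts before thinning, 20.6% of them met the cell cycle call described below, against 5.56% of those with Ly6d. That call was thus made at unlike depths.

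Several genes that were higher in diestrus were found more often in the cells without Ly6d. Calca had a count in 31.5% of the diestrus cells without Ly6d (25.7 to 37.6) and in 5.85% of those with it (3.61 to 8.89). Tnfsf11 stood at 21.0% and 3.22%, Agtr1a at 56.9% and 15.2%, Hba-a1 at 58.5% and 14.0%, Bdnf at 35.9% and 9.65%, and Areg at 94.0% and 48.0%. The other direction was seen for Fgb, in 8.47% and 28.9%, and for Pgr, in 2.42% and 10.2%. Calca and Tnfsf11 were found together in 23 cells, so that 36.5% of the 63 cells with Tnfsf11 had Calca, against 14.2% of those without it.

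Genes that did not choose the cells were compared as well. Ptn was present in 99.6% of the diestrus cells without Ly6d and 100% of those with it, Krt18 in 99.2% and 100%, and Cldn3 in 86.7% and 85.1%. Krt14 was found in 2.42% and 3.80%, and Trf in 9.68% and 7.02%. Other ML genes outside the rule were found less often without Ly6d: Cxcl15 in 30.2% and 43.9%, Foxa1 in 8.87% and 14.6%, and Esr1 in 3.63% and 5.56%. The LP gene Wfdc18 was found in 7.66% and 2.05%. In estrus the 40 cells without Ly6d had Agtr1a in 7.5%, against 9.97% with Ly6d, Areg in 42.5% against 34.2% and Hba-a1 in 7.5% against 3.37%. In puberty, with 283 cells without Ly6d, Agtr1a was in 19.1% against 6.01%, Hba-a1 in 17.7% against 6.99%, Wfdc12 in 10.6% against 1.46% and Tnfsf11 in 2.47% against 0.122%. Fgb was in 45.0% of the estrus cells without Ly6d against 28.2% with it, and in puberty it was in 65 of the 283 cells without Ly6d against 45.9% of those with it.

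**Figure D4:**
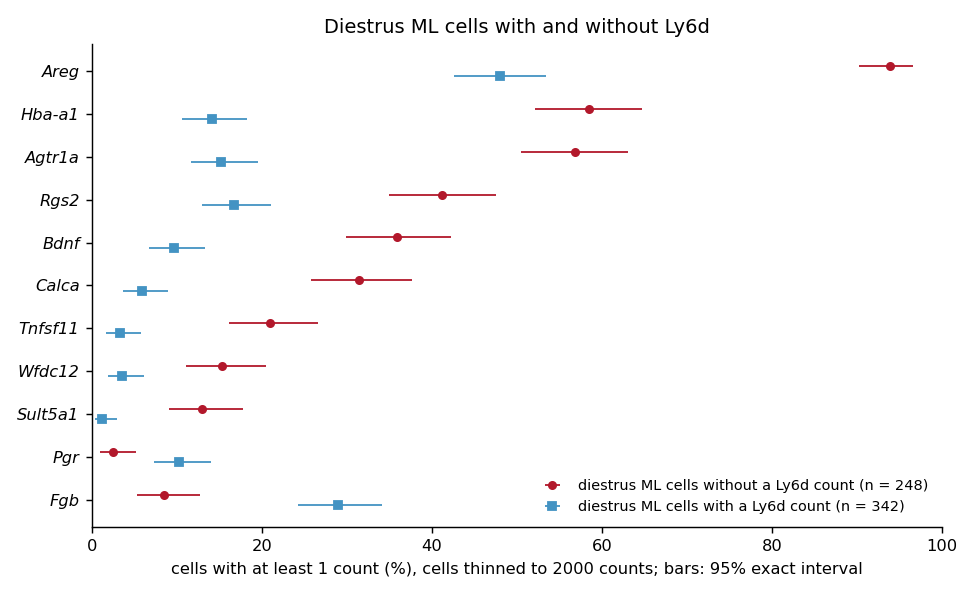
Share of diestrus ML cells with a count of each gene, thinned to 2000 counts, for the 248 cells without and the 342 cells with a Ly6d count, with 95% exact intervals. Calca, Tnfsf11, Agtr1a, Hba-a1, Bdnf and Areg were more frequent without Ly6d, and Pgr and Fgb were more frequent with it.

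Of the 13 lower genes not shifted in basal cells, the first by rule was Fgb, which encodes the beta chain of fibrinogen. Fgb stood at 466 CPM in diestrus, 1215 in estrus and 1887 in puberty, 2.61-fold higher in estrus than diestrus (2.46 to 2.77), with a count in 25.7% and 35.0% of ML cells. In basal cells it ran the other way, at 21.0 and 4.14 CPM, where 1.78% and 1.06% of cells had a count. Its ML log2 ratio moved from -1.38 to -0.73 when each cell had equal weight and to -0.76 with thinned counts, both inside the fold of 2.

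Irx3, a homeobox transcription factor, stood at 96.9 and 202 CPM in ML cells, in 32.9% and 48.0% of cells, and at 51.9 and 54.1 CPM in basal cells. Csn3, a casein gene typical of LP cells, had 83 and 253 counts in ML cells. Its log2 ratio was 0.38 in ML cells with none of the basal and LP genes of the rule. In LP cells Csn3 was also lower in diestrus, at 3576 CPM against 8046 in estrus. Etl4, Irgm1, an interferon-inducible GTPase, Galnt18, Trip12, a ubiquitin ligase, and Idh1, isocitrate dehydrogenase, had log2 ratios from -1.23 to -1.05. Idh1 moved to -0.26 when each cell had equal weight, and Trip12 to -0.49 after thinning. Galnt18 went the other way in basal cells (133 CPM in diestrus and 88.1 in estrus) and in LP cells (43.9 and 18.6). Hmgn2 and Psme2b were at -1.02 and -1.05, and 54.9% and 68.9% of their 3′ ends are shared with other genes.

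Of the 62 genes lower in diestrus ML cells and under 20 CPM in basal cells, 8 were named by rule. Ido1, which degrades tryptophan, stood at 29.6 CPM in diestrus, 96.2 in estrus and 229 in puberty, in 6.51% and 13.2% of adult ML cells. H2-DMb2, a class II antigen loading factor, had 8 and 95 counts. H2-Q6, a class I gene with 52.0% of its 3′ end shared, had 13 and 95 counts, and Oas1a, an interferon-induced oligoadenylate synthetase, had 16 and 112. The inducible chaperone Hspa1b had 15 and 121 counts, and its twin Hspa1a stood at 353 and 858 CPM, and both were also lower in basal cells. So were H2-Q6, with 4 basal counts in diestrus and 41 in estrus, H2-DMb2, with 4 and 19, Gdpd3, with 26 and 89, and Rrp36, with 29 and 66. Rrp36, Gdpd3 and Hist2h2aa1, whose whole 3′ end is shared, had log2 ratios of -2.08, -1.83 and -3.39.

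Named after their values were seen, Il33, an alarmin cytokine, stood at 104 and 290 CPM (log2 ratio -1.48), Tmprss2, a membrane serine protease, at 133 and 361 CPM in 38.9% and 73.9% of cells, Proc, anticoagulant protein C, at 16.3 and 51.6 CPM, and Upk2, a uroplakin, at 26.0 and 77.6 CPM. Each was under 10 CPM in basal cells. Cxcl15, a chemokine of ML cells, went the other way, at 305 and 125 CPM.

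Of 15 interferon response genes, none was higher and 4 were lower in diestrus (Isg15, Irf7, Oas1a and Xaf1), against 2.14% of all genes, with a median log2 ratio of -0.70. The 5 measured in basal cells had a median of -0.03 there. The 4 lower genes were under 20 CPM in basal cells and are not among the 5, so these medians cover different genes. Isg15, a ubiquitin-like modifier, stood at 22.4 and 56.6 CPM, and Irf7, the transcription factor of the response, at 9.11 and 23.3 CPM. Irf7 and Oas1a (5.20 and 29.3 CPM) reached 20 CPM in estrus only, the phase where they were high. Of 11 antigen presentation genes, H2-T23 was lower, at 139 and 358 CPM, and it was also at least 1.5-fold lower in basal cells. The median of the 11 was -0.61, against 0.29 for the 10 measured in basal cells. None of the 13 tight junction genes was past the fold, against 7.24% of all genes, and their median was -0.39.

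The counts of other lists stand beside a share of 7.24% of all genes past the fold, 5.1% higher and 2.14% lower. None of 16 luminal transcription factors was, with a median of -0.21, among them Foxa1 at 61.8 and 83.6 CPM and Gata3 at 201 and 240 CPM. The 21 immediate early genes had a median of -0.35 and none past the fold, and in basal cells they stood at -0.51. Of 23 glutathione and antioxidant genes, the metallothioneins Mt1 (2451 and 683 CPM) and Mt2 (1483 and 423 CPM) were higher and Gstm1 and Gstp1 were lower. All 4 were shifted the same way in basal cells. Of 9 milk and secretory genes, Csn2 and Wfdc18 were higher and Csn3 was lower, and 45.2% of the Csn2 counts of diestrus came from 1 cell. Among keratins, Krt15, a basal and progenitor keratin, stood at 34.8 and 6.55 CPM and was higher in basal cells too.

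The difference between the 2 phases in the share of ML cells with cell cycle genes depended on the setting. The call required counts of 3 or more of the 10 genes Mki67, Top2a, Birc5, Cdk1, Ccnb1, Ccnb2, Cdc20, Cenpa, Tyms and Rrm2. It was met by 73 of 630 ML cells in diestrus (11.6%, 9.19 to 14.3) and 65 of 748 in estrus (8.69%, 6.77 to 10.9), a difference of 2.90 percentage points (-0.389 to 6.26). Counted by Mki67 alone it was -0.602 points, and after thinning it was -0.232. In basal cells the shares were 21.7% and 5.59%, and in LP cells they were 15.2% and 4.02%, or 16.7% against 5.03% and 9.47% against 2.43% after thinning. No test of the difference between lineages was made, since each has 1 library per phase.

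Of 20 S phase genes, 5 were at least 2-fold higher in diestrus ML cells (Mcm5, Mcm7, Cdt1, Ung and Rpa2), against 5.1% of all genes, and none was lower, with a median log2 ratio of 0.64 against 1.36 in basal cells. Of 16 genes of G2 and M phase none was higher and 2 were lower, against 2.14% of all genes, the mitotic kinase Plk1 and the kinetochore motor Cenpe, with a median of -0.35 against 1.69 in basal cells. Plk1 had 27 counts in ML cells of diestrus and 90 in estrus (log2 ratio -1.43), and in basal cells its log2 ratio was 1.90. Cenpe had 27 and 79 counts (-1.24), and 1.65 in basal cells, and its ML log2 ratio was -0.51 after thinning and -0.66 without the cells with most counts. These counts came from few cells, 16 and 29 with Plk1 and 21 and 29 with Cenpe. Both genes reached 20 CPM in ML cells of estrus only, the phase where they were high.

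For the remaining lists the share of all genes past the fold was again 7.24%, and most of these lists are too short to be set apart from it. The unfolded protein response list had 0 of 17, ion and solute transport 0 of 11, cholesterol and fatty acid synthesis 0 of 8, extracellular matrix and protease genes 0 of 8 and mitochondrially encoded genes 0 of 9. Notch genes had 0 of 3, Wnt ligands 0 of 3 and the IGF axis 0 of 1, where Igfbp5 had a log2 ratio of 0.95. TGF-beta and BMP genes had 1 of 8 (Tgfb1, lower), prolactin and STAT5 signalling 1 of 7 (Stat5a), G1 regulators 1 of 6 (Cdk4, higher), EGF family genes 1 of 4 (Areg), the calcitonin family 1 of 2 (Calca) and the RANKL axis 1 of 1 (Tnfsf11). Of 13 heat shock genes, Hspe1 was higher and Hspa1a and Hspa1b were lower, and of 5 cytokines and chemokines Cxcl15 and Ccl5 were higher and Il33 was lower. A list median between 0 and 0.18, such as the Notch median of 0.04, falls below 0 when total counts set the scale.

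The higher genes shifted in both lineages had short transcripts. The 189 higher genes also shifted in basal cells had a median longest transcript of 887 bases, and 45 of them encode ribosomal proteins, whereas the 37 not shifted in basal cells had a median of 2132 bases, against 2371 over all genes compared. The 38 lower genes also shifted in basal cells had a median of 2006 bases. Some of the higher genes were measured in LP cells too. Of those also shifted in basal cells, 168 of 177 (94.9%) were at least 1.5-fold higher in LP cells. Of those not shifted in basal cells, 7 of 24 (29.2%) were. The same share over all genes was not taken. For genes with transcripts under 500 bases, the median log2 ratio was 1.64 in ML cells, 1.84 in basal cells and 1.68 in LP cells, and 76.7% of the 43 in ML cells were past the fold. For transcripts of 2000 bases or more it lay between -0.06 and -0.04 in ML cells. The part of transcript length in the results was not tested, and Calca (994 bases), Defb1 (872) and Wfdc12 (775) have short transcripts while Tnfsf11 (2236) and Bdnf (4266) do not.

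The named genes of this group were Wdr89, Tmsb10, an actin-sequestering peptide, Wfdc18, Snrpg, a splicing factor core protein, and Nme2, with log2 ratios from 2.83 to 3.59 in ML cells and from 2.20 to 4.03 in basal cells. Of the 3′ ends of Tmsb10 and Nme2, 46.9% and 98.6% are shared with other genes. Lower in both were Gstp1 (90.1% shared with other genes), Tgfb1, which encodes a growth-inhibiting cytokine, Pgk1, a glycolytic enzyme, Ccdc85b and Sbno2, with log2 ratios from -3.77 to -2.63. Tgfb1 had 16 counts in ML cells of diestrus and 271 in estrus. Cytoplasmic ribosomal protein genes had a median of 0.82 in ML cells and 0.83 in basal cells. In ML cells 45 of 100 were higher past the fold and 1 was lower, against 5.1% and 2.14% of all genes.

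**Figure D5:**
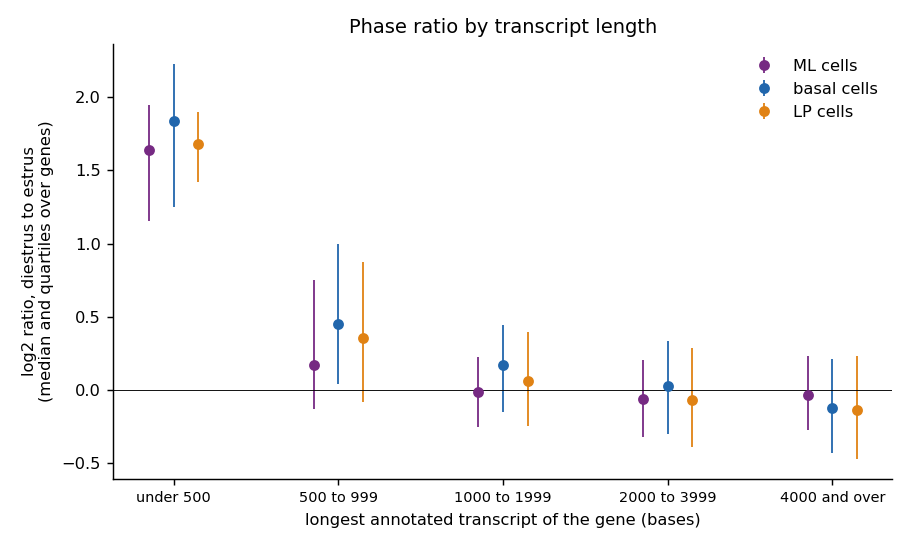
Median log2 ratio of diestrus to estrus with quartiles over genes (y axis) by longest annotated transcript (x axis), for ML, basal and LP cells. Genes with transcripts under 500 bases were higher in diestrus in all 3 lineages, with medians of 1.64, 1.84 and 1.68, and those of 2000 bases or more lay near 0.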

How the data were processed

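The authors captured single cells on the 10x Genomics Chromium with the 3′ protocol. They made the tables with Cell Ranger (version 2.0, mm10, per the submitters' processing notes), and the deposited values are raw counts of molecules per gene and cell, without normalization. The cells deposited by the authors were all used. ML, basal and LP cells were chosen by counts of 18 genes, and no doublet caller was run. An ML cell had at most 1 LP and 2 basal genes, and an LP cell had at most 1 ML and 2 basal genes. Counts were summed over the cells of a class and scaled by TMM (edgeR 4.0.16, R 4.3.3). The ML cells held 3271658 counts in diestrus and 3587199 in estrus before scaling, and the scaled library sizes were 3074998 and 3816616. Genes at 20 CPM or over in either library were compared, and a fold of 2 was called. A gene could pass this level only through the phase where it was higher. Intervals are exact Poisson, exact binomial (Clopper-Pearson) and, for folds, exact conditional binomial at 95%, computed with SciPy 1.17.1. The interval of the difference in cycling share combines the exact limits of both shares by square-and-add and is not itself exact. All intervals cover counting error only, and cells are not replicates. A gene with 0 counts was set at 3 counts over the group, and 1 to 3 counts were given as a ratio with its interval. Detection was repeated after each cell was thinned at random to 2000 counts.

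The pubertal tables share 5387 barcodes, so the first was used and the second was not analysed further. Genes were named by rule, from those at 20 CPM or over, without the 18 genes and without ribosomal, haemoglobin, mitochondrial and provisional gene models. They were ranked by the interval limit nearest to a fold of 1. Named were the first 12 in each direction not shifted in basal cells (fold under 1.5 or the other way) and the first 8 in each direction low in basal cells. The first 5 in each direction shifted in both, those with opposite directions, and members of lists were named too. The cells, genes and 28 gene lists were chosen with earlier results of these data known. The lists of hormone receptors, prolactin and STAT5 signalling, luminal transcription factors, and milk and secretory genes each hold 1 of the 18 genes. Gene models and transcript lengths came from GENCODE M21 (27645 of 27998 genes matched), upstream bases from RefSeq. A 3′ end counts as shared where its runs of 50 bases, within the last 400 bases, occur in another gene. One listed gene was not in the table. The count comparison was tested on simulated data. As alternatives, 14 planned settings and 2 chosen after the data were seen were run.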

Additional observations from a re-analysis of the deposited data

Results flagged for a closer look

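Some genes of ML cells ran the other way in basal cells. Fgb had a log2 ratio of diestrus to estrus of -1.38 in ML cells and 2.34 in basal cells, Plk1 one of -1.43 and 1.90, and Cenpe one of -1.24 and 1.65. With 1 library per phase the difference between the cell types was not tested. In basal cells Fgb was present in 1.78% of cells in diestrus and 1.06% in estrus. For Plk1 and Cenpe, the share of basal cells called cycling, 21.7% in diestrus and 5.59% in estrus, moved with the basal ratio, and its part in it was not tested.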

How the results depend on the processing

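No paired analysis was possible because each phase has 1 library and no replicate. With counts scaled by the library totals in place of TMM, 194 genes were lower in diestrus, and 20 higher and 30 lower genes were not shifted in basal cells, in place of 113, 37 and 13. A filter at 50 CPM left 47 lower genes, and 9 higher and 4 lower ones not shifted in basal cells. No filter gave 1132 higher and 883 lower genes, with 554 and 461 not shifted in basal cells. The 13 lower genes not shifted in basal cells became 23 when TMM was set without ribosomal and mitochondrial genes, 22 with at least 4 of 6 ML genes, 27 with thinned counts and 21 in ML cells with none of the basal and LP genes of the rule, a setting added after the data were seen. A stricter limit on the basal fold left 22 higher and 8 lower genes. The difference in cycling share of ML cells was -0.602 points by Mki67 alone. Without the top 5% of cells by counts, the shares were 8.14% in diestrus and 4.69% in estrus. Of the 50 genes named by rule, 49 kept their direction under every alternative run on them and 37 stayed past the fold. Csn3 reversed to 0.38 in ML cells with none of the basal and LP genes. The cause of these moves was not tested. Differences between mice cannot be read from 1 library.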
